A study of Mus musculus with 11 samples.

Results

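The miR-29 family was followed through 11 mouse small RNA libraries as 3 mature 3p arms, mmu-miR-29a-3p, mmu-miR-29b-3p and mmu-miR-29c-3p (mmu marks mouse and is left out below). These 3 mature miRNAs, of 2304 listed features, were selected on their read levels in these sperm libraries, chosen by staying abundant in sperm of Dicer or Drosha knockout males, so their levels in knockout against wild-type (WT) sperm are given as a description, with no test. Sperm came from the cauda epididymis of adult C57BL/6 males with a germ line conditional knockout (cKO) of Dicer (2 libraries), with a germ line cKO of Drosha (3 libraries), or WT (2 libraries). Embryos at the 2PN (pronuclear) stage were made by injecting Dicer cKO, Drosha cKO or WT sperm, with 1 library each, and 1 library came from oocytes of superovulated WT females. Both knockouts were made with Cre and loxP, and the Cre driver is not named in the labels. The labels do not say how many animals were pooled or whether replicate libraries had separate sources, so the tests speak only of the spread among these libraries, which may be technical. Messenger RNA was not measured, so neither knockout could be checked at its target.

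miRNAs of the miR-29 family pair through a shared seed with messenger RNAs of collagens and other matrix proteins, and with those of the DNA methyltransferases Dnmt3a and Dnmt3b, and lower their output in several tissues. The family is abundant in differentiated somatic tissues such as muscle, kidney and brain. Like most miRNAs they are released as hairpins by Drosha in the nucleus and cut to mature arms by Dicer in the cytoplasm.

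The mature sequences show what the members share and where they part. The 3p arms are printed 5′ to 3′ from RefSeq (GRCm38.p6), with the seed (bases 2 to 8) in capitals.
miR-29a-3p: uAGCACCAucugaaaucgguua
miR-29b-3p: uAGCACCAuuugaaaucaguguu
miR-29c-3p: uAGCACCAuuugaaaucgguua

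All 3 members carry the same seed, and they were the only ones with it among the 1333 listed miRNAs that had a RefSeq sequence, of 1592 listed. Counting from the 5′ end, miR-29a-3p and miR-29c-3p differ by C10U alone and are identical at 21 of 22 positions. miR-29b-3p, at 23 bases, differs from miR-29a-3p by C10U, G18A, U21G and A22U (written from miR-29a-3p to miR-29b-3p). From miR-29b-3p to miR-29c-3p the changes are A18G, G21U and U22A. miR-29b-3p ends in AGUGUU, which in human cells is known as an element that sends miR-29b to the nucleus. Of the 1333 sequences 2 end in these letters (read on the mature strand), those of miR-29b-3p and miR-92b-5p. How the authors counted mismatched or short reads is not stated, so reads short of or mismatched at position 10 could be shared between miR-29a-3p and miR-29c-3p. Outside the family, the closest listed miRNA differed from any member at 9 or more positions.

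The members come from 4 hairpins in 2 pairs, shown in lower case with both annotated mature arms in capitals (RefSeq, GRCm38.p6).
Mir29a: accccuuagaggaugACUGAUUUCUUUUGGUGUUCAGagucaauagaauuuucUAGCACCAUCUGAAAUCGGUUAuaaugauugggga
Mir29b-1: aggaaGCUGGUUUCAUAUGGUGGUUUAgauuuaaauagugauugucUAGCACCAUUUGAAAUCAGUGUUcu
Mir29b-2: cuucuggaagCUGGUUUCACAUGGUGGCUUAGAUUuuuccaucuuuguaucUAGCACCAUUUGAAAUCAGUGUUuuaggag
Mir29c: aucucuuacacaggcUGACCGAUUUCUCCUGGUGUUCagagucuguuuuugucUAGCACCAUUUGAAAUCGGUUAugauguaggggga

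Mir29a (chr6:31062660-31062747) and Mir29b-1 (chr6:31063023-31063093) lie on the minus strand of chromosome 6, 275 bases apart, with no other RefSeq gene spanning them. Mir29b-2 (chr1:195037040-195037120) and Mir29c (chr1:195037547-195037634) lie on the plus strand of chromosome 1, 426 bases apart, within the annotated span of the long non-coding RNA A330023F24Rik. Whether these positions are exonic was not looked up here. Both miR-29b hairpins give the same 3p arm, so its reads cannot be assigned to chromosome 6 or chromosome 1.

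Depth differed widely among libraries. Listed reads ran from 108141 to 122989 for Dicer cKO sperm, 12003 to 100934 for Drosha cKO sperm, 73377 to 278890 for WT sperm and 2951 to 8967 for the oocyte and 2PN libraries. Levels below are shares of listed reads in each library unless stated, with 95% exact (Clopper-Pearson) intervals that cover counting error only. In bulk libraries, fewer cells of a type and less RNA per cell cannot be told apart. The 12 male germ cell markers, which include miR-34c-5p, summed to between 0.881% and 0.928% in Dicer cKO sperm and between 1.44% and 2.55% in Drosha cKO sperm, against 17.1% to 18.7% in WT sperm. These markers of the labelled cells were thus abundant in WT libraries and far lower in every cKO library. They are miRNAs themselves, and most miRNAs need Drosha and Dicer, so their sum cannot by itself gauge germ cell content. The part of the deleted enzymes in the lower sum was not tested.

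The miR-29 family as a whole took a larger share of listed reads in every cKO sperm library than in either WT library. It held 10.8% and 10.02% in Dicer cKO sperm, 6.74%, 9.11% and 9.47% in Drosha cKO sperm, and 2.72% and 2.60% in WT sperm. The means were 10.4% ± 0.533 (SD, n = 2) in Dicer cKO, 8.44% ± 1.48 (n = 3) in Drosha cKO and 2.66% ± 0.0849 (n = 2) in WT sperm. The Dicer cKO mean was 3.92 times the WT mean and the Drosha cKO mean 3.18 times.

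miR-29b-3p was the most abundant member on average in all 3 sperm groups. It held 5.24% and 4.44% in Dicer cKO sperm, 3.92%, 4.85% and 4.57% in Drosha cKO sperm, and 1.35% and 1.28% in WT sperm. These shares rested on 582 to 6443 reads, and the cKO libraries all lay above both WT libraries while the 2 cKO groups overlapped. By share it ranked between 2 and 5 in the cKO libraries and at 16 and 17 in the WT libraries.

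miR-29a-3p held 4.53% and 4.63% in Dicer cKO sperm, 2.24%, 3.52% and 4.04% in Drosha cKO sperm, and 1.22% and 1.18% in WT sperm. Both Dicer cKO libraries stood above all Drosha cKO libraries, which in turn stood above both WT libraries. Drosha cKO replicate 1, the deepest of its group, was the lowest of the cKO libraries for this miRNA. The ranks were 6 and 4 in Dicer cKO, 11, 7 and 3 in Drosha cKO, and 21 and 20 in WT sperm.

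miR-29c-3p was the least abundant member in every sperm library. It held 1.005% and 0.948% in Dicer cKO sperm, 0.576%, 0.741% and 0.854% in Drosha cKO sperm, and 0.150% and 0.134% in WT sperm. The shallowest value, in Drosha cKO replicate 2, came from 89 reads, with an interval of 0.596% to 0.912%, and lay above the interval of either WT library, the higher of which ended at 0.181%. The ratio of means was 6.88 for Dicer cKO over WT and 5.10 for Drosha cKO over WT, against 3.81 and 2.72 for miR-29a-3p and 3.69 and 3.39 for miR-29b-3p.

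**Figure D1:**
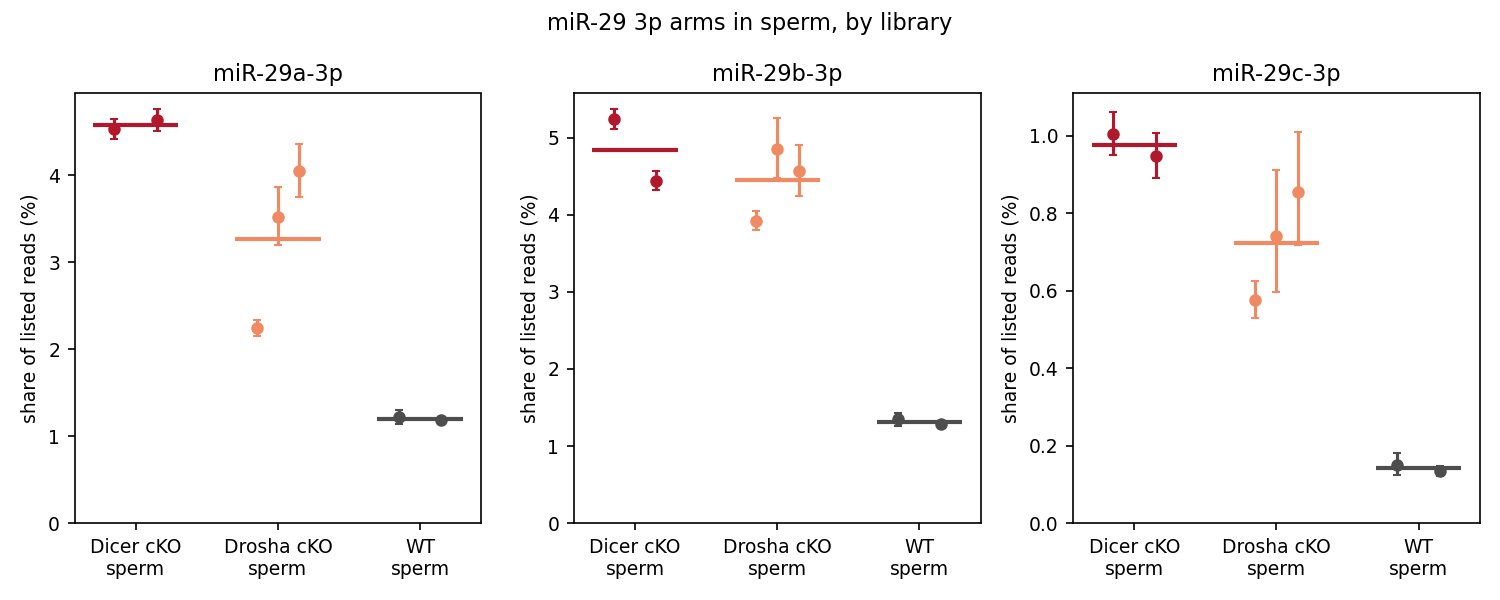
Share of listed reads (%) of each miR-29 3p arm in 7 sperm libraries. Points are libraries with 95% exact intervals and lines are group means; every Dicer cKO and Drosha cKO library lies above both WT libraries, with miR-29c-3p at 0.576% to 1.005% in cKO and 0.134% to 0.150% in WT sperm.

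All 3 members had groups that did not overlap, higher in Dicer cKO than in WT sperm, as had 46.3% of the 335 features that passed the filter on low counts. In Drosha cKO against WT sperm the members also did not overlap, as was so for 42.1% of the features in the higher direction. These counts are fixed by the choice of members and carry no evidence of their own. All 3 members passed the filter.

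The size of the change depended on how libraries were scaled. With TMM factors, which assume that most features keep their level, edgeR gave log2 changes in Dicer cKO over WT of 1.22 (SE 0.449) for miR-29a-3p, 1.17 (SE 0.425) for miR-29b-3p and 2.08 (SE 0.508) for miR-29c-3p. In Drosha cKO over WT the log2 changes were 0.46 (SE 0.410), 0.78 (SE 0.393) and 1.38 (SE 0.470). With library totals alone they were 1.93, 1.88 and 2.78 in Dicer cKO and 1.44, 1.76 and 2.35 in Drosha cKO. The median of all 335 features moved too, to 0.62 and 1.04 with library totals, against 0.03 and 0.05 with TMM factors. Measured from that median, miR-29a-3p stood at 1.18 with TMM factors and 1.31 with library totals in Dicer cKO, and at 0.40 under both scalings in Drosha cKO. miR-29c-3p stood at 2.05 and 2.17 in Dicer cKO and at 1.32 and 1.30 in Drosha cKO. Among the members miR-29c-3p was farthest above the median under both scalings. A change of scaling moves all features of a library alike, so it could hardly alter this order. In the Drosha cKO fit the miR-29a-3p change turned to -0.39 without WT replicate 1, that of miR-29b-3p to -0.018 and that of miR-29c-3p to 0.60. Without Dicer cKO replicate 1 or 2 it was -0.19 or -0.16 for miR-29a-3p. The median of all features moved in these fits too. It was -0.225 without WT replicate 1, and -0.335 or -0.307 without Dicer cKO replicate 1 or 2.

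**Figure D2:**
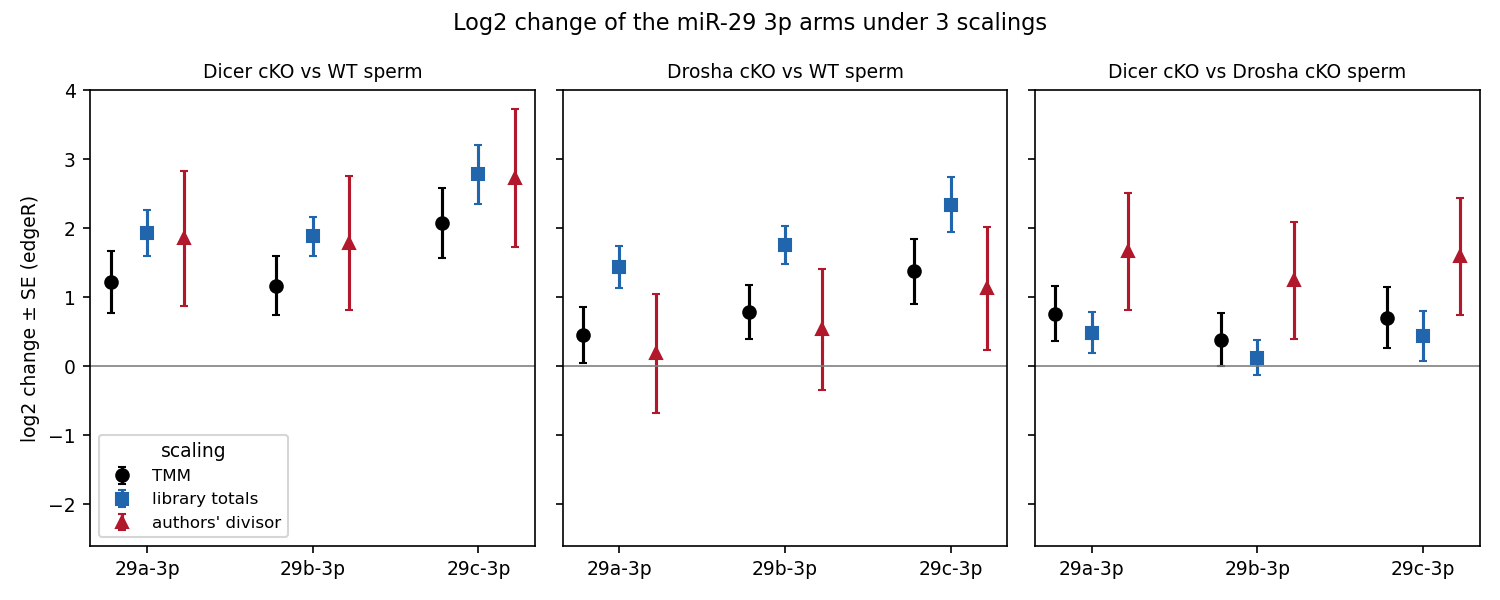
Log2 change ± SE from edgeR for each miR-29 3p arm in 3 comparisons of sperm groups, under 3 scalings of the libraries. With TMM factors miR-29c-3p lies highest over WT, at 2.08 in Dicer cKO and 1.38 in Drosha cKO, and the values of the third panel run from 0.39 to 0.76 with TMM factors.

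The authors' own RPM values divided each count by another library total, and what that total counts is not stated. In RPM the family stood at 4768 and 7027 in Dicer cKO sperm, 1816, 2652 and 1998 in Drosha cKO sperm, and 586 and 2610 in WT sperm. WT replicate 2 lay within the Drosha cKO range, so Drosha cKO and WT overlapped on this scale and Dicer cKO did not overlap with either. The ratio of means was 3.69 for Dicer cKO over WT and 1.35 for Drosha cKO over WT. Listed reads made up 2.16% of the divisor in WT replicate 1 and 10.1% in WT replicate 2. By share of listed reads these libraries were close, at 2.72% and 2.60%, so their spread in RPM follows from the divisor by arithmetic. Why listed reads differed so as a part of the divisor was not tested.

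**Figure D3:**
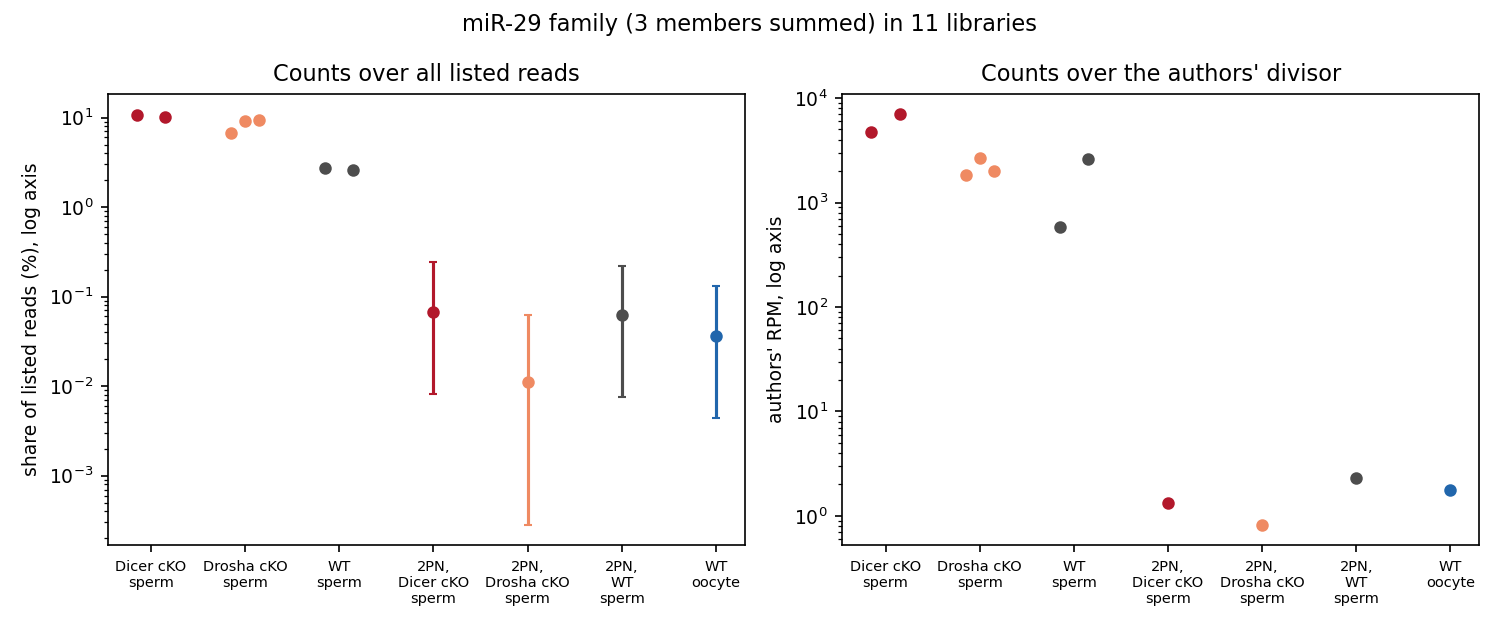
Summed miR-29 3p arms in all 11 libraries as share of listed reads (left, %) and as the authors' RPM (right), both on log axes, with 95% exact intervals on the left. The 7 sperm libraries lie at 2.60% to 10.8% and the 4 oocyte and 2PN libraries at 0.0112% to 0.0678%.

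The difference between the 2 knockouts did not enter the choice of members and was tested. No member passed the edgeR quasi-likelihood test with Benjamini-Hochberg adjustment over the 335 features. For miR-29a-3p the log2 difference, Dicer cKO minus Drosha cKO, was 0.76 (SE 0.399, 95% interval -0.09 to 1.61, edgeR adjusted p = 0.294). For miR-29b-3p it was 0.39 (SE 0.381, interval -0.42 to 1.19, edgeR adjusted p = 0.603). For miR-29c-3p it was 0.70 (SE 0.442, interval -0.23 to 1.64, edgeR adjusted p = 0.389). The shares did not overlap for miR-29a-3p and miR-29c-3p, both higher in Dicer cKO, and overlapped for miR-29b-3p. Such non-overlap in that direction held for 15.2% of all tested features. edgeR called 0% of the 335 features at an adjusted p of 0.05 (65 at an unadjusted p under 0.05), DESeq2 called 16 and limma on RPM called 2. The filter was run anew in other fits, so the number of features tested differed. It was 335 with library totals, 300 with only the 2 groups in the fit, 405 without WT replicate 1 and 386 without WT replicate 2. edgeR called 13 with library totals, 31 with only the 2 groups in the fit, 36 without WT replicate 1 and 39 without WT replicate 2. Without WT replicate 1, edgeR called miR-29a-3p higher in Dicer cKO, with a log2 difference of 1.25 and adjusted p = 0.0193 (0.0193 to 0.559 over the 18 alternative fits).

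The make-up of the family needs no library scaling. miR-29c-3p formed 9.33% and 9.46% of family reads in Dicer cKO sperm, 8.54%, 8.14% and 9.02% in Drosha cKO sperm, and 5.52% and 5.17% in WT sperm. Every cKO library was above both WT libraries. For each read of miR-29a-3p, its nearest relative, there were 0.222 and 0.205 reads of miR-29c-3p in Dicer cKO, 0.257, 0.210 and 0.211 in Drosha cKO, and 0.123 and 0.114 in WT sperm. miR-29a-3p formed 42.1% and 46.2% in Dicer cKO, 33.25%, 38.7% and 42.7% in Drosha cKO, and 45.0% and 45.5% in WT sperm. miR-29b-3p formed 48.6% and 44.3% in Dicer cKO, 58.2%, 53.2% and 48.2% in Drosha cKO, and 49.5% and 49.3% in WT sperm, so that the 3 Drosha cKO libraries varied more among themselves than the WT libraries did. Since the knockouts against WT are the contrast behind the choice, these are descriptions; 5 libraries against 2 could also not have given an exact permutation p below 0.0952. Between Dicer cKO and Drosha cKO the exact two-sided permutation p was 0.4 for miR-29a-3p, 0.4 for miR-29b-3p and 0.2 for miR-29c-3p, which is the smallest that 2 against 3 libraries allow (adjusted over the 3 members, 0.4 each).

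**Figure D4:**
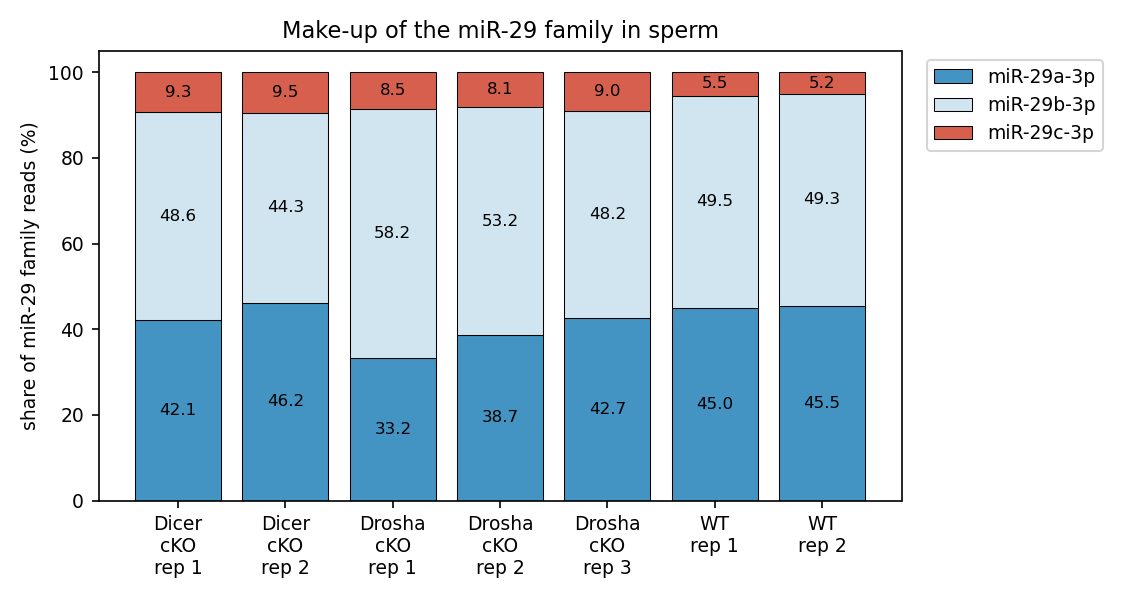
Share of miR-29 family reads (%) taken by each member in each sperm library, as stacked bars. miR-29c-3p takes 8.14% to 9.46% in the 5 cKO libraries and 5.17% to 5.52% in the 2 WT libraries.

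The other arms of the same hairpins were rare. Summed over the 7 sperm libraries, miR-29a-5p had 62 reads beside 18102 of miR-29a-3p, a share of 0.341% of both. The 2 miR-29b 5p arms together had 32 reads beside 21072 of miR-29b-3p, a share of 0.152%. miR-29c-5p had 59 reads beside 3551 of miR-29c-3p, a share of 1.63% (interval 1.25% to 2.10%), above the other 2 hairpin families beyond counting error. The 4 arms summed to 47 and 41 reads in Dicer cKO, 16, 3 and 7 in Drosha cKO, and 7 and 32 in WT sperm, with 215.3 to 425.0 reads of the 3p members for each. Of these arms miR-29a-5p and miR-29c-5p passed the filter, and neither passed the edgeR test between the knockouts, at a log2 difference of 1.29 (SE 0.895, adjusted p = 0.425) and 1.30 (SE 0.861, adjusted p = 0.413).

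The summed shares of epithelial, blood and stromal markers were, like that of the family, higher in every cKO library than in either WT library. Single markers did not all follow. The 6 epithelial miRNAs of the miR-200 family, miR-141 and miR-205 summed to 13.6% and 16.3% in Dicer cKO sperm, 11.8%, 14.3% and 11.4% in Drosha cKO sperm, and 1.65% and 1.83% in WT sperm. All 6 were called higher by edgeR in both knockouts. The marker and family lists were chosen with earlier results of these data known. Counts of calls within them are thus a description. Over all 335 features edgeR called 47.2% in Dicer cKO against WT (16.1% higher) and 55.2% in Drosha cKO against WT (22.1% higher). The 6 markers had median log2 changes of 2.53 in Dicer cKO and 1.87 in Drosha cKO. The blood markers, such as miR-451a of red cells and miR-223-3p of myeloid cells, summed to 5.17% and 5.16% in Dicer cKO sperm, 2.26%, 2.27% and 2.56% in Drosha cKO sperm, and 0.542% and 0.527% in WT sperm. Of the 8 listed, 5 were called higher in Dicer cKO, and 4 were called higher and 1 lower in Drosha cKO. Over the 8, log2 changes in Drosha cKO over WT ran from -2.68 to 2.69. The 5 stromal markers summed to 2.61% and 1.87% in Dicer cKO sperm, 1.69%, 1.08% and 1.39% in Drosha cKO sperm, and 0.795% and 0.315% in WT sperm, with 2 called higher in Dicer cKO and 0 in Drosha cKO. All 12 male germ cell markers were called lower in both knockouts, where 31% (Dicer cKO) and 33.1% (Drosha cKO) of all features were called lower. No marker of these 4 lists was at 0 reads in any sperm group, and the part of these cell types in the family's levels was not tested.

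Of 2 other abundant families, the let-7 sum was also higher by share in every cKO library than in either WT library. The miR-30 sum was lower, by little in Dicer cKO. The let-7 family, which is also high in differentiated tissues, summed to 8.79% and 8.36% in Dicer cKO sperm, 10.7%, 17.4% and 12.6% in Drosha cKO sperm, and 3.67% and 3.31% in WT sperm. Of its 9 members 3 were called higher in Dicer cKO, where 16.1% of all features were, and 4 in Drosha cKO, where 22.1% were. The miR-30 family summed to 6.97% and 7.53% in Dicer cKO sperm, 4.33%, 4.16% and 4.23% in Drosha cKO sperm, and 7.58% and 8.62% in WT sperm. Of its 5 members 2 were called lower in Dicer cKO, near the 31% of all features, and 4 in Drosha cKO, where 33.1% of all features were. The miR-29 family held between 1.33 and 1.55 reads for each miR-30 read in Dicer cKO and between 1.56 and 2.24 in Drosha cKO, against 0.301 to 0.358 in WT sperm. For each epithelial read it held between 0.614 and 0.792 in Dicer cKO and between 0.570 and 0.828 in Drosha cKO, against 1.42 to 1.65 in WT sperm. In the authors' RPM the epithelial, blood and germ cell sums of each knockout again did not overlap with WT. For blood in Drosha cKO the gap was narrow, with a lowest sum of 540 against a highest of 530 in WT. The stromal and let-7 sums of Drosha cKO and WT overlapped in RPM, as did the miR-30 sums of Dicer cKO and WT.

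**Figure D5:**
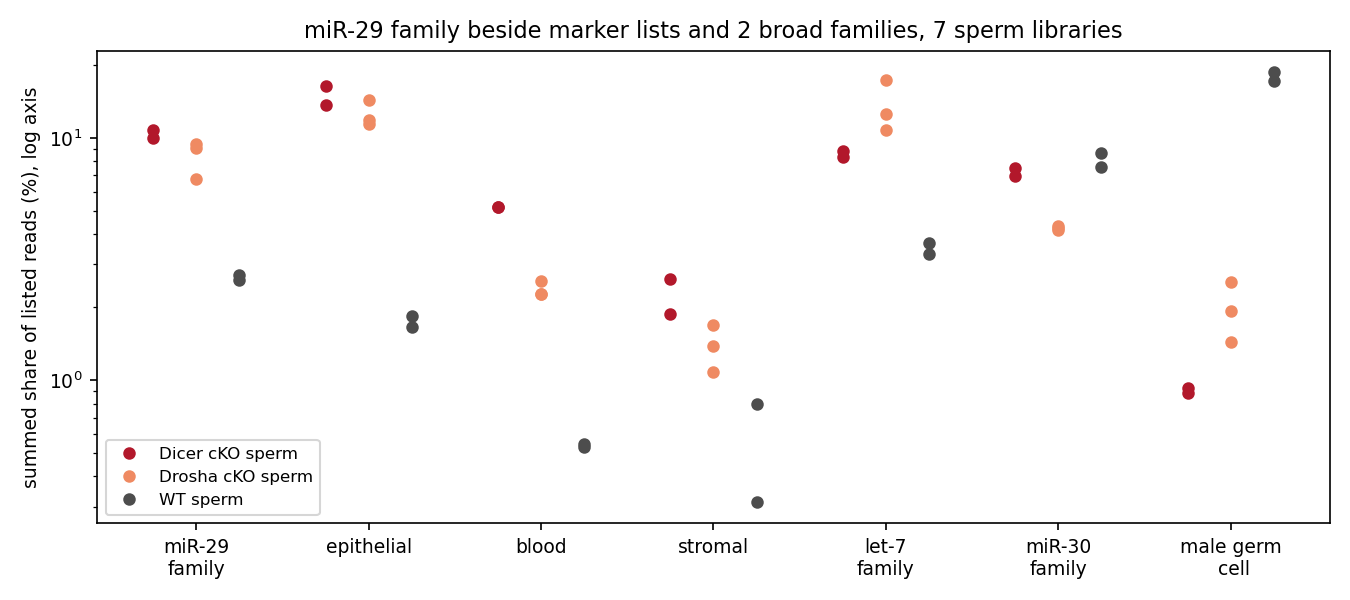
Summed share of listed reads (%, log axis) of the miR-29 family, 4 marker lists and 2 other families in 7 sperm libraries; each point is a library. The miR-29, epithelial, blood, stromal and let-7 sums lie higher in all cKO libraries than in WT. The miR-30 sums lie lower, by little in Dicer cKO (up to 7.53%, against 7.58% or more in WT). The male germ cell sums lie lower, at 0.881% to 2.55% in cKO against 17.1% to 18.7% in WT.

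The miRNAs whose profile over the 7 sperm libraries was most like that of the summed members were miR-221-3p, miR-26a-5p, miR-101a-3p, miR-223-3p and miR-200a-3p, with Pearson r of log2(CPM + 10) of 0.986, 0.985, 0.982, 0.974 and 0.974 (CPM, counts scaled to listed reads). The 155 candidates averaged 500 CPM or more over these libraries, and 34 of them had r over 0.9. The points share library depth and fall into WT and cKO libraries that lie apart, and r is given with no p. miR-26a-5p averaged 25683 CPM in Dicer cKO, 19607 in Drosha cKO and 7948 in WT sperm, and miR-200a-3p averaged 25509, 19135 and 2370 CPM. The lowest r belonged to miR-741-3p, miR-34b-5p and miR-34c-5p, male germ cell markers, at -0.988, -0.987 and -0.986. Between members r was 0.947 for miR-29a-3p with miR-29b-3p, 0.977 for miR-29a-3p with miR-29c-3p and 0.990 for miR-29b-3p with miR-29c-3p.

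In mean share over the 5 cKO libraries miR-29b-3p ranked 3, miR-29a-3p 6 and miR-29c-3p 30, but the order against their neighbours differed between the knockouts. miR-29b-3p lay below miR-10a-5p in both, and stood at 4.84% below miR-21a-5p (5.27%) in Dicer cKO and at 4.45% above it (3.30%) in Drosha cKO. miR-29a-3p stood at 4.58% beside 4.50% of miR-10b-5p and 1.99% of let-7f-5p in Dicer cKO, and at 3.27% beside 3.39% and 3.71% of these in Drosha cKO. miR-29c-3p lay below miR-99a-5p in both, and stood at 0.976% above miR-7a-5p (0.338%) in Dicer cKO and at 0.724% below it (1.06%) in Drosha cKO. The mean share over the 5 cKO libraries was 3.51 times that in WT sperm for miR-29b-3p, 3.57 times for miR-21a-5p and 7.14 times for miR-10a-5p.

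In the oocyte and 2PN libraries the family was at the limit of detection. The 2PN library from Dicer cKO sperm held 2 reads of 2951, both of miR-29c-3p, a share of 0.0678% (interval 0.00821% to 0.245%). The 2PN library from Drosha cKO sperm held 1 read of 8967, of miR-29b-3p (0.0112%, interval 0.000282% to 0.0621%). The 2PN library from WT sperm held 1 read each of miR-29a-3p and miR-29b-3p of 3243 (0.0617%, interval 0.00747% to 0.223%), and the oocyte library 2 reads of miR-29b-3p of 5530 (0.0362%, interval 0.00438% to 0.131%). The oocyte and 2PN libraries together held 7 family reads of 20691. No 5p arm had a read there. For a member with 0 reads the upper limit of the exact interval lay between 0.0411% and 0.125%, depending on the library.

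The family's share was lower in each 2PN library than in the sperm libraries of the genotype injected. The ratio of shares was 0.0065 (interval 0.000787 to 0.0235) for 2PN embryos over Dicer cKO sperm, 0.00153 (3.87e-05 to 0.00852) over Drosha cKO sperm and 0.0235 (0.00285 to 0.0850) over WT sperm, and 0.0138 (0.00167 to 0.0499) for oocytes over WT sperm. Reads of sperm libraries were summed within each group here, so these intervals cover counting error only and leave out the spread between replicates. miR-292-3p had 14 reads in sperm and 0 in the oocyte and 2PN libraries, while miR-292a-3p had 0 and 133, so the miRNA names counted may differ between sperm and the other libraries; the part of this in the ratios was not tested. Differences among embryos were not detectable at this depth: the ratio was 1.10 (interval 0.0797 to 15.2) for 2PN from Dicer cKO over 2PN from WT sperm, 0.181 (0.00307 to 3.47) for 2PN from Drosha cKO over 2PN from WT sperm, and 1.71 (0.124 to 23.5) for 2PN from WT sperm over oocytes. The miR-30 family held 38.3%, 29.5% and 22.4% in the 2PN libraries from Dicer cKO, Drosha cKO and WT sperm and 27.5% in oocytes. An abundant family was thus detected as a sum at this depth, though not in each member. In the 2PN library from Dicer cKO sperm 2 of its 5 members, miR-30a-5p and miR-30e-5p, had 0 reads.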

How the data were processed

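The authors deposited raw counts of 1592 mature miRNAs and 712 endo-siRNAs. Their RPM table, also deposited, is these counts over a whole-number divisor of each library (412523 to 3743577), scaled up. Bowtie and mm10 are named in the submitters' processing notes, with no version; neither the counting rule nor the miRNA release is stated. Sequences and coordinates were read from RefSeq tables of GRCm38.p6.

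Counts of the 7 sperm libraries were fitted in edgeR 4.0.16 under R 4.3.3 (TMM factors, default expression filter leaving 335 features, quasi-likelihood test, two-sided, Benjamini-Hochberg at 0.05), which gave a biological coefficient of variation of 0.459. DESeq2 1.42.0 and limma 3.58.1, on log2(RPM + 1), were alternatives. Replicates differed beyond counting error (chi-square per degree of freedom 5.74 to 42), so each entered the fits as its own sample; reads were summed over libraries for the arm shares, the joint oocyte and 2PN count and the ratios of oocytes and 2PN embryos to sperm. Permutation tests enumerated all regroupings. The members and lists were chosen with earlier results of these data known. The named features are the members, the other arms of their hairpins, the 5 features most like the members, the rank neighbours and examples from the marker lists; miR-92b-5p, miR-292-3p and miR-292a-3p, and the 3 germ cell markers with the lowest correlation, were added after their values were seen. The make-up test in knockouts against WT had been planned and is given as a description, since the choice of members used that contrast. Oocyte and 2PN groups have 1 library each and no test. No genome was used.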

Additional observations from a re-analysis of the deposited data

How the results depend on the processing

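The number of features called in Dicer cKO against WT sperm was 158 and ran from 112 to 174 when 1 library was left out; in Drosha cKO against WT it was 185, with a range of 153 to 185, and 112 with no filter on low counts. Between the knockouts 0 features were called by edgeR in the main fit, 13 with library totals, 1 with the authors' divisor, 1 with no filter, 4 with at least 10 CPM in 2 libraries, 31 with only the 2 groups in the fit, 16 by DESeq2 and 2 by limma, and 0 to 39 when 1 library was left out (36 without WT replicate 1, 39 without WT replicate 2). With the replicate number as a block 8 were called, and no member was (adjusted p = 0.323, 0.718 and 0.445 for miR-29a-3p, miR-29b-3p and miR-29c-3p by edgeR). The number of features tested differed among all these fits, from 300 with only the 2 knockout groups to 2186 with no filter. Same-numbered libraries correlated at 0.129 to 0.294 in their deviations from the group mean, and differently numbered ones at -0.294 to 0.0357. In a group of 2 libraries the deviations mirror each other, so these values are not independent. The labels do not say that a number marks a shared batch.

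With 1 library left out, the log2 difference between the knockouts ran from 0.58 to 1.29 for miR-29a-3p (edgeR adjusted p 0.0193 to 0.559), 0.35 to 1.004 for miR-29b-3p and 0.60 to 1.27 for miR-29c-3p. The log2 ratio of the family's mean share was 1.97 in Dicer cKO over WT (1.92 to 2.02 with a library left out, 1.88 with the authors' divisor) and 1.67 in Drosha cKO over WT (1.58 to 1.81, and 0.43 with the divisor). In Drosha cKO over WT with a library left out, the log2 change of miR-29a-3p ran from -0.39 to 0.82. That of miR-29b-3p ran from -0.018 to 1.01 and that of miR-29c-3p from 0.60 to 1.67. The median of all features ran from -0.335 to 0.11 in these fits. With the shallow Drosha cKO replicates 2 and 3 left out, miR-29a-3p was at -0.26 and the median at -0.389. The difference in make-up, cKO minus WT in percentage points, was -4.65, 1.09 and 3.55 for miR-29a-3p, miR-29b-3p and miR-29c-3p with both knockouts pooled. With 1 library left out it ran from -6.06 to -2.82, -0.83 to 2.64 and 3.38 to 3.75, in that order of members. It was -1.10, -2.95 and 4.05 with Dicer cKO alone, -7.02, 3.79 and 3.23 with Drosha cKO alone, and -1.09 for miR-29a-3p and miR-29c-3p summed. The cause of these shifts was not tested. With the authors' divisor the median of all features moved to 0.88 in Dicer cKO over WT, -0.04 in Drosha cKO over WT and 0.90 between the knockouts. The 2 shallow Drosha cKO libraries and the oocyte and 2PN libraries limit the precision.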

Other observations

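Beside the blood markers, the miR-29 family held between 1.94 and 2.09 reads for each blood read in Dicer cKO sperm and between 2.98 and 4.01 in Drosha cKO sperm, against 4.92 to 5.01 in WT sperm. Beside the let-7 family it held between 1.20 and 1.23 reads for each let-7 read in Dicer cKO sperm and between 0.525 and 0.752 in Drosha cKO sperm, against 0.740 to 0.784 in WT sperm. Relative to let-7, then, Dicer cKO libraries lay above WT and the Drosha cKO libraries overlapped with WT, a difference between the knockouts that was not tested. These ratios need no library scaling.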
